A study of Mus musculus with 8 samples.

Results

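Tripartite motif (TRIM) proteins carry a RING domain, 1 or more B-boxes and a coiled coil, and most act as ubiquitin ligases. Many TRIM genes are switched on by interferon, and their products tune antiviral sensing and inflammatory signalling in immune and stromal cells. Here the 7 genes Trim30a, Trim30d, Trim30b, Trim12c, Trim21, Trim25 and Trim59 were followed in the ascending aorta. They are all 7 of the 69 mouse genes with a Trim number in the reference name table that have a row among the 1329 genes analysed here, and the other 62 were not analysed here. Those 1329 genes had been selected by the authors as significant between the groups compared below, so every TRIM gene entered because it differed, and tests on the same values describe that selection and are not independent evidence.

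Poly-A RNA was sequenced from mice given DT-061 (4 libraries), a small molecule activator of protein phosphatase 2A, and from mice given the vehicle solution alone (4 libraries). All mice were homozygous for the Fbn1 mgR allele (Fbn1mgR/mgR), which lowers expression of fibrillin-1 and models Marfan syndrome, so no mouse with normal fibrillin-1 is in the comparison. DT-061 was given by mouth at 5 mg/kg, 2 times a day for 4 weeks from 5 weeks of age, and the vehicle, a mix of N,N-dimethylacetamide, Kolliphor HS-15 and water, on the same schedule. Whether each library came from its own mouse is not in the labels, so the p-values speak of the spread among these libraries, part of which may be technical.

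The libraries held 14100000 to 22200000 fragments, to 3 significant digits, as estimated from the steps between low values. The tissue label fitted the muscle markers, since the smooth muscle myosin gene Myh11 had 916 to 1356 FPKM (fragments scaled to gene length and sequencing depth) with DT-061 and 504 to 728 FPKM with vehicle. DT-061 library 3 and vehicle library 4 stood apart from the others of their group. The mean log2(FPKM + 1) of 5 macrophage markers was lowest in DT-061 library 3, at 1.71, with 3.10 to 3.44 in the remaining DT-061 libraries, against 3.53 in vehicle library 4 and 4.73 to 5.59 in the other vehicle libraries. Results are therefore also given without these libraries. Vehicle library 1 lay at the other end, highest in all 7 TRIM genes, and the changes without it are given too.

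Promoter stretches of 5 TRIM genes are shown because they hold letters that match, in whole or in part, the element known from interferon target genes. The interferon-stimulated response element, searched as GAAA, any 2 bases and GAAA again on both strands from 250 bases before to 50 bases after each RefSeq start site (GRCm38.p6), was present in the windows of Trim30a, Trim30d, Trim12c and Trim21. It occurred in 3.44% of 32851 such windows of all genes, in 7.37% of the 1276 windows of genes in the table and in 16 of 31 windows of listed interferon response genes in the table. Of the 8 TRIM windows, 5 held it, since Trim30a has 2 start sites and both matched. The second start of Trim30a lies 19068 bases inside its GENCODE gene model. Both Trim30a windows and that of Trim30d match with the same letters, so the matches are not all separate. The stretches below run from 100 bases before to 30 bases after the start, 5′ to 3′ along the gene, with the matched element in capitals (its reverse complement where it lies on the other strand); for Trim25 the capitals mark a match to the shorter core GAAANNGAA only.
Trim30a: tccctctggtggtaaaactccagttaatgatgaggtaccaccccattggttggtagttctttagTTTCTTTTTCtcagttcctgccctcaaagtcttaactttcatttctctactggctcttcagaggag
Trim30d: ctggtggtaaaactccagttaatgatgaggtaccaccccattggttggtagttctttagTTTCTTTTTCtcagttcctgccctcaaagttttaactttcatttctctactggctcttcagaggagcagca
Trim12c: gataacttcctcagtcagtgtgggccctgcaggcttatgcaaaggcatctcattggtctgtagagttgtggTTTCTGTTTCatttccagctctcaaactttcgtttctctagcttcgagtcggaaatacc
Trim21: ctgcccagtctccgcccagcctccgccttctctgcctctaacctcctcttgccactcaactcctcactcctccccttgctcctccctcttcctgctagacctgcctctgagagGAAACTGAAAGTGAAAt
Trim25: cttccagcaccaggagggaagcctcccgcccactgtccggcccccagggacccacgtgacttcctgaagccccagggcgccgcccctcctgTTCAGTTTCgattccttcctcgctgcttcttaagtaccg

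These stretches lie at chr7:104465164-104465293 for Trim30a, chr7:104507820-104507949 for Trim30d, chr7:104353320-104353449 for Trim12c and chr7:102565453-102565582 for Trim21, all on the minus strand, and at chr11:88999303-88999432 on the plus strand for Trim25. The Trim30a and Trim30d windows were 93.9% identical over their aligned bases, and both carry the same letters in the element, 36 to 27 bases before the start in Trim30a and 41 to 32 bases before it in Trim30d. In Trim12c the element stands 29 to 20 bases before the start. Trim21 holds 2 overlapping copies, which together span bases 14 to 29 after its start. No match to either form was found in the windows of Trim30b and Trim59, and the RefSeq start of Trim30b lies 11238 bases inside the longer gene model of GENCODE, so its window may not be the start in use. The gamma-activated site TTCNNNGAA, palindromic and therefore read once, was in 8.3% of all windows and in 0 of the 8 TRIM windows. A match is a string of letters and does not show that a factor binds there.

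**Figure D1:**
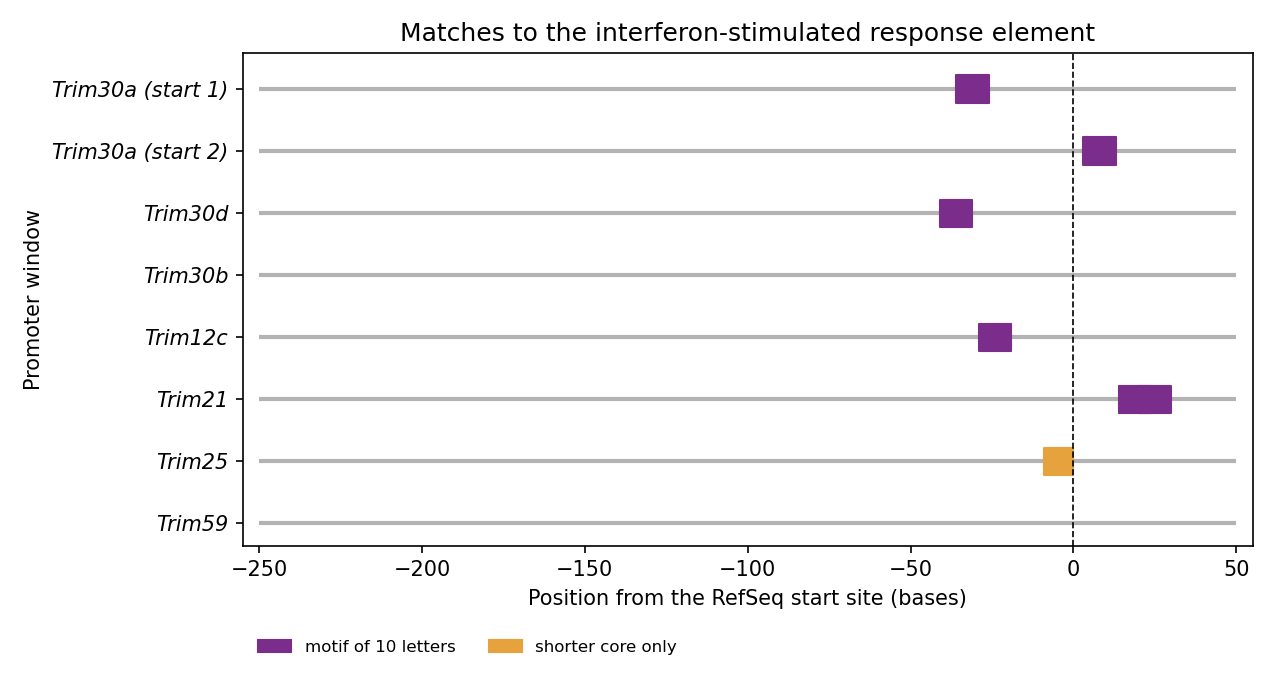
Promoter windows of the 7 TRIM genes, with position from the RefSeq start site in bases on the x axis and 1 row per start site. Purple blocks are matches to the 10-letter interferon-stimulated response element and the orange block is a match to its 9-letter core only; 5 of the 8 windows hold the longer motif.

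TRIM transcripts were lower in the DT-061 aortas, by 1.63-fold to 6.19-fold as ratios of mean FPKM. The upper end is Trim30b, which was 3.57-fold lower without vehicle library 1, and the other 6 genes were at most 3.05-fold lower. All 7 fell by limma on log2(FPKM + 1) with p-values adjusted over the table (adjusted p under 0.05), and 6 of the 7, all but Trim25, had DT-061 values that lay entirely below the vehicle values. In the whole table, 65.0% of the genes fell, 95.4% passed the threshold in either direction, and in 48.2% the DT-061 values lay entirely below those of vehicle (78.3% did not overlap in either direction). Of the 894 lower genes of the table, 864 fell and 641 had DT-061 values entirely below those of vehicle. Fewer cells that carry these transcripts and less RNA per cell cannot be told apart in bulk tissue. The direction depended on the scaling: with library medians made equal Trim12c and Trim21 turned to higher, and with quantile normalization Trim12c, Trim21, Trim30b and Trim59 did, none of these past the threshold.

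Trim30a, Trim30b, Trim30d and Trim12c lie within 169096 bases of chromosome 7 (GRCm38 chromosome 7, 104338754 to 104507849, all on the minus strand), in a cluster of TRIM genes that differs between mammals. Trim30a is induced by interferon and Toll-like receptor ligands in mouse and restrains NF-κB signalling by promoting loss of the adaptor proteins TAB2 and TAB3. Its coding sequence was 90.5% identical to that of Trim30d over the aligned bases. Of the distinct 150-base stretches of the transcripts, the length of 1 read, 3.24% of those of Trim30a also occurred in Trim30d and 3.23% of those of Trim30d in Trim30a. Reads from those stretches could have been split between the genes or dropped, so their single values are uncertain to that extent. Gene models overlap Trim30d (the pseudogene Gm16464) and Trim12c (Gm27995) on the same strand and Trim30a (Gm25405) on the other, and their reads cannot be told apart from these values.

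Trim30a (ENSMUSG00000030921) had 4.3, 4.04, 1.5 and 5.39 FPKM in DT-061 libraries 1 to 4, against 20.2, 10.5, 9.97 and 5.69 FPKM in vehicle libraries 1 to 4. The groups did not overlap, but DT-061 library 4 and vehicle library 4 were only 0.303 FPKM apart, and DT-061 library 3 was the lowest of all. Its mean was 3.81 ± 1.65 FPKM in DT-061 aortas and 11.6 ± 6.14 FPKM in vehicle aortas (SD, n = 4 each), 3.05-fold lower. On the log2 scale it fell by 1.35 ± 0.40 (SE; limma adjusted p = 0.020), which put it at place 188 of the 1329 genes counted from the most negative change. The exact permutation test over the 8 libraries gave p = 0.0286, two-sided, the smallest value that 4 against 4 allows. With a pseudocount of 1 it was the TRIM gene with the largest log2 change (with 0.1 its change was -1.58, smaller than the -1.73 of Trim30b), and its change was -0.64 with the median rescaling (adjusted p = 0.056) and -0.77 with quantile normalization (adjusted p = 0.037).

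Trim30d (ENSMUSG00000057596), a neighbouring paralogue, had 3.37, 3.43, 1.81 and 3.35 FPKM with DT-061, against 10.5, 6.51, 5.95 and 4.42 FPKM with vehicle. Here 3 of the DT-061 libraries lay between 3.35 and 3.43 FPKM and library 3 stood below them, and the gap between the groups was 0.993 FPKM. The mean was 2.29-fold lower, with a log2 change of -0.94 ± 0.26 (SE, n = 4 each; limma adjusted p = 0.018; exact permutation p = 0.0286). With the median rescaling and with quantile normalization the change was -0.26 (adjusted p = 0.23) and -0.22 (adjusted p = 0.27).

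Trim30b (ENSMUSG00000052749), another Trim30 paralogue, was scarce in every library. It had 0.139, 0.164, 0.098 and 0.135 FPKM with DT-061, against 1.88, 0.628, 0.342 and 0.464 FPKM with vehicle. These values stood for about 11 to 19 fragments in a DT-061 library and 45 to 229 fragments in a vehicle library. The mean was 6.19-fold lower, but vehicle library 1 stood far above the other vehicle libraries, which ranged from 0.342 to 0.628 FPKM. On the log2(FPKM + 1) scale, which understates changes of low values, it fell by 0.62 ± 0.23 (SE, n = 4 each; limma adjusted p = 0.030), and with a pseudocount of 0.1 the change was -1.73. Its call was lost without any DT-061 library or without vehicle library 2 (adjusted p up to 0.0639), and the change was -0.38 without vehicle library 1.

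Trim12c (ENSMUSG00000057143), a rodent relative of the retrovirus restriction factor gene TRIM5 of primates, had 3.95, 4.41, 3.92 and 4.67 FPKM with DT-061, against 9.58, 6.78, 6.21 and 5.02 FPKM with vehicle. The DT-061 values were tight, within 1.19-fold of each other, while the vehicle values spread 1.91-fold. The mean was 1.63-fold lower, and the log2 change of -0.56 ± 0.18 was past the threshold (SE, n = 4 each; limma adjusted p = 0.022; exact permutation p = 0.0286). Among the fits that left out 1 library, the call was lost without DT-061 library 1 (adjusted p = 0.0503), and both rescalings turned the direction. It shares 2.54% of its 150-base stretches with Trim5, which was not analysed here.

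Trim21 (ENSMUSG00000030966; chromosome 7, 102557921 to 102565486) encodes a cytosolic receptor for the Fc part of antibodies that directs antibody-coated particles to the proteasome. It had 3.49, 3.69, 4.02 and 3.70 FPKM with DT-061, against 8.68, 6.64, 5.61 and 4.16 FPKM with vehicle. All 4 DT-061 libraries, library 3 included, lay within 1.15-fold of each other, and vehicle library 4 was 0.138 FPKM above the highest of them. The log2 change was -0.59 ± 0.19 (SE, n = 4 each; limma adjusted p = 0.024; exact permutation p = 0.0286). The call was lost without DT-061 library 1 or vehicle library 2 (adjusted p up to 0.0534).

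Trim25 (ENSMUSG00000000275, on chromosome 11) encodes the ubiquitin ligase known for activating the viral RNA sensor RIG-I. It had 4.72, 3.82, 3.22 and 6.22 FPKM with DT-061, against 13.1, 8.23, 8.55 and 5.28 FPKM with vehicle. The groups overlapped, because DT-061 library 4 exceeded vehicle library 4. The mean was 1.96-fold lower and the log2 change was -0.80 ± 0.27 (SE, n = 4 each; limma adjusted p = 0.024), while the exact permutation test gave p = 0.0571. The call was lost when library 2 or 3 of DT-061, or library 3 of vehicle, was left out (adjusted p up to 0.0564).

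Trim59 (ENSMUSG00000034317, on chromosome 3), a membrane-anchored TRIM protein of the endoplasmic reticulum that has been tied to tumour cell growth, had 1.47, 1.78, 0.961 and 1.13 FPKM with DT-061. Its vehicle values were 3.70, 2.02, 3.0 and 2.51 FPKM. The groups did not overlap, and the lowest vehicle library was library 2, whereas it was library 4 in 5 of the TRIM genes and library 3 in Trim30b. The mean was 2.10-fold lower, and it fell by 0.70 ± 0.20 on the log2 scale (SE, n = 4 each; limma adjusted p = 0.018; exact permutation p = 0.0286), with a call in every fit that left out 1 library.

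**Figure D2:**
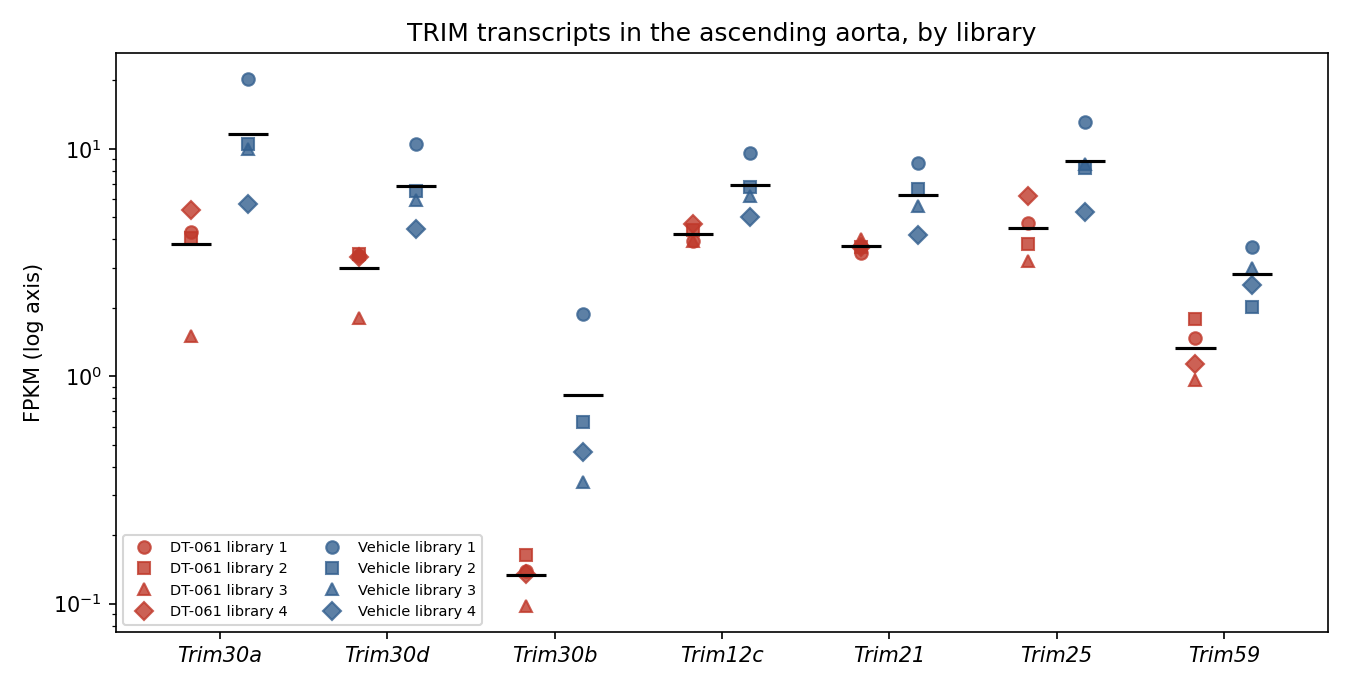
FPKM of the 7 TRIM genes on a log axis, with DT-061 libraries in red and vehicle libraries in blue, 1 symbol per library number and a bar at each group mean. The groups are apart in 6 genes and overlap in Trim25, where DT-061 library 4 (6.22 FPKM) is above vehicle library 4 (5.28 FPKM).

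The order of the levels also shifted, as FPKM is scaled to gene length and allows genes to be set side by side. With DT-061 the mean levels ran from Trim25 at 4.50 FPKM over Trim12c at 4.24, Trim30a at 3.81, Trim21 at 3.72 and Trim30d at 2.99 to Trim59 at 1.34 and Trim30b at 0.134 FPKM. With vehicle, Trim30a came first at 11.6 FPKM, then Trim25 at 8.79, Trim12c at 6.90, Trim30d at 6.84, Trim21 at 6.27 and Trim59 at 2.81, with Trim30b last. Among the first 5 genes in each order, neighbours had overlapping ranges over libraries, except Trim21 and Trim30d with DT-061, at 3.49 to 4.02 and 1.81 to 3.43 FPKM. Library by library, Trim21 exceeded Trim30d in all 4 DT-061 libraries, and Trim30a exceeded Trim25 and Trim25 exceeded Trim12c in all 4 vehicle libraries, while the order of the remaining neighbours among these 5 genes differed between libraries of a group. Trim59 lay below all 5 in each of the 8 libraries and Trim30b below Trim59 in each.

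Ratios between TRIM genes within a library do not change when a library is multiplied by 1 factor, though quantile normalization can change them. The log2 ratio of Trim30a to Trim25 was -0.13, 0.08, -1.10 and -0.21 in DT-061 libraries 1 to 4, against 0.63, 0.36, 0.22 and 0.11 in vehicle libraries 1 to 4. The groups did not overlap and the means differed by -0.67, or by -0.42 without DT-061 library 3. For Trim30d over Trim12c the ratios were -0.23, -0.36, -1.12 and -0.48 with DT-061 and 0.13, -0.06, -0.06 and -0.18 with vehicle, again without overlap, and the means differed by -0.50, or by -0.31 without DT-061 library 3. Trim21 over Trim12c gave a different picture, its mean being -0.18 ± 0.16 in DT-061 aortas and -0.15 ± 0.10 in vehicle aortas (SD, n = 4 each), and the groups overlapped. Of the 21 pairs, 6 had ratios that separated the groups, and 3 of these involve the scarce Trim30b. The 21 pairs reuse the same 7 genes, and no share over other gene pairs of the table was computed, so the count cannot be called unusual. These ratios are given as a description, with no test.

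In size, the TRIM changes were ordinary for the table. Their median log2 change was -0.70, against -0.87 over the 894 lower genes and -0.58 over all genes. Trim30a and Trim30d were the only TRIM genes with a change beyond -0.87. The median rescaling moved the changes of all genes by a median of 0.68 and quantile normalization by 0.56, and both assume a balance of higher and lower genes that a selected table need not have. Among the TRIM genes, only Trim30b was past the threshold with the median rescaling (log2 change -0.38, limma adjusted p = 0.0354) and only Trim30a with quantile normalization. Without DT-061 library 3 and vehicle library 4 the changes were -1.33 for Trim30a, -0.94 for Trim30d, -0.69 for Trim30b, -0.66 for Trim12c, -0.77 for Trim21, -0.88 for Trim25 and -0.65 for Trim59, and all but Trim30b (limma adjusted p = 0.0509) were past the threshold. Without vehicle library 1 all changes were smaller than as deposited, though all 7 stayed past the threshold. They were -1.06 for Trim30a, -0.74 for Trim30d, -0.38 for Trim30b and -0.41 for Trim12c. For Trim21, Trim25 and Trim59 they were -0.44, -0.61 and -0.59.

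**Figure D3:**
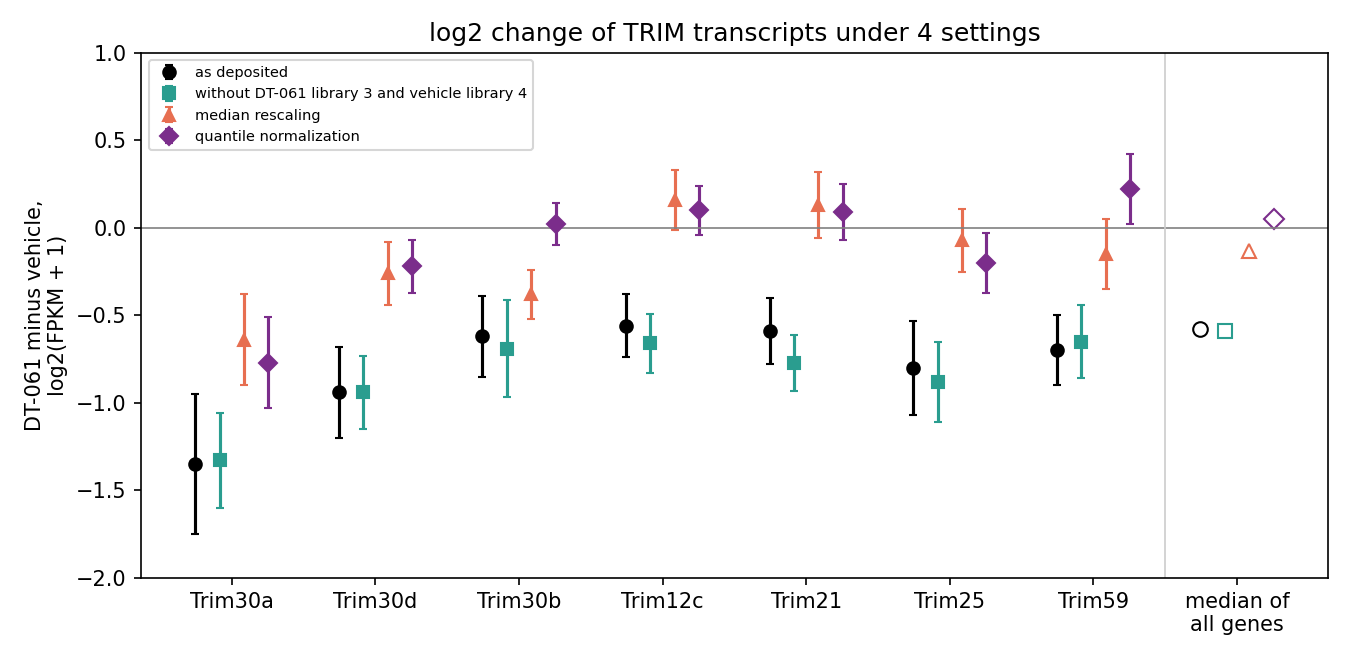
DT-061 minus vehicle difference of log2(FPKM + 1) for each TRIM gene, with SE bars, under 4 settings, and the median over all genes in open symbols. As deposited all 7 are below 0, from -1.35 to -0.56; with the median rescaling 2 and with quantile normalization 4 of them lie above 0.

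Genes that work beside TRIM proteins in interferon signalling were lower too. Of 29 listed genes that sense foreign RNA and DNA or relay that signal, 15 were in the table and all 15 fell, where 65.0% of the whole selected table fell. Their median log2 change was -1.35, but 7 passed the threshold under each rescaling, and 1 turned to higher with the median rescaling and 2 with quantile normalization. Among them the transcription factor gene Irf7 had 8.06, 9.27, 6.31 and 14.8 FPKM with DT-061, against 72.7, 39.7, 36.4 and 12.1 FPKM with vehicle. The groups overlapped through library 4 of each, with a log2 change of -1.77 ± 0.50 (SE, n = 4 each; limma adjusted p = 0.018). Ifi205, of the interferon-inducible p200 family, changed by -1.83 ± 0.43. The list of interferon receptors and signalling had 6 of 23 genes in the table, all of which fell (median -0.95), although 2 turned to higher with the median rescaling, and 2 and 3 fell with the median rescaling and quantile normalization. Irf8, a transcription factor of myeloid cells, was 4.65-fold lower, and Socs3, a feedback inhibitor of cytokine signalling, was 3.73-fold lower.

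All 41 interferon response genes in the table, of 66 listed, fell as deposited (median -1.05), while 4 turned to higher with each scaling, and 11 and 14 fell with the median rescaling and quantile normalization. DT-061 values lay entirely below vehicle values in 23 of the 41 (56.1%). The same held for 641 of the 894 lower genes of the table, which are 48.2% of all its genes, so the list did not stand above the lower genes. Phf11b was 4.44-fold lower, and Ms4a4c, a membrane protein gene of leukocytes, was 15.9-fold lower with overlapping groups, or 8.29-fold without vehicle library 1 and 28.9-fold without DT-061 library 4; its call was lost in 5 of the 8 fits that left out 1 library. Human TRIM25 protein also attaches the ubiquitin-like protein ISG15 to targets, and 3 of 6 listed genes of ISG15 conjugation were in the table and fell as deposited, 1 of them turning to higher and none passing the threshold with each scaling. Isg15 had 10.4, 6.01, 5.56 and 14.9 FPKM with DT-061, against 51.8, 35.0, 19.3 and 9.74 FPKM with vehicle, so the groups overlapped, and its call was lost in 6 of the 8 fits without 1 library. Usp18, which removes ISG15, was 2.97-fold lower.

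Other partners gave few genes. In the list of Fc receptors and C1q, which like Trim21 recognize antibody, Fcgr4 and the shared signalling chain gene Fcer1g were the 2 of 12 genes in the table, and they fell by 2.01 and 1.31 on the log2 scale, with overlapping groups. Of 37 listed genes of Toll-like receptor and inflammasome signalling, the pathway that Trim30a restrains, 9 were in the table and fell as deposited (median -1.02), against 65.0% of the table. With the median rescaling 3 of them turned to higher and 2 fell, and with quantile normalization 1 fell. The receptor genes Tlr9 and Tlr1 were 6.83-fold and 4.26-fold lower, at 0.529 and 0.973 FPKM with DT-061 and 3.61 and 4.14 FPKM with vehicle (Tlr9 was 4.09-fold lower without vehicle library 1); both overlapped between groups, and the calls were lost in 4 and 1 of the 8 fits without 1 library. The adaptor genes of TAB2 and TAB3 were among the genes of this list that were not analysed here. None of the 16 listed ubiquitin and conjugating enzyme genes was in the table. Mefv, a TRIM family gene under another name that encodes the inflammasome protein pyrin, had 0.0643, 0.118, 0 and 0.23 FPKM with DT-061, against 2.11, 1.22, 0.74 and 0.153 FPKM with vehicle, with overlapping groups and a log2 change of -0.81 ± 0.28 (SE, n = 4 each; limma adjusted p = 0.025), and its call was lost in 3 of those fits.

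Proliferation genes were read beside Trim59. Of 38 listed genes 14 were in the table and fell as deposited (median -0.83), against 65.0% of the table. With each rescaling 0 fell, 8 turned to higher with quantile normalization, and 7 fell without DT-061 library 3 and vehicle library 4. Cdc20, an activator of the anaphase-promoting complex, was 2.45-fold lower, and the topoisomerase gene Top2a was 2.71-fold lower with overlapping groups and lost its call in 4 of the 8 fits without 1 library. The mean log2(FPKM + 1) of the 14 genes was highest in vehicle library 4, at 2.31. Trim59 was lower there (2.51 FPKM) than in vehicle libraries 1 and 3. In other libraries the extremes were shared. Among DT-061 libraries, the mean of the 14 genes and Trim59 were highest in library 2 (1.31, and 1.78 FPKM). They were lowest in library 3 (0.80, and 0.961 FPKM). Among vehicle libraries, both were lowest in library 2 (1.31, and 2.02 FPKM). A link between them was not tested.

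Markers of immune cells, like the TRIM genes, were lower with DT-061. All had been selected on the difference between the groups, so a shared shift between groups is no independent evidence. Within groups the orders did not match for every TRIM gene. Trim21 was highest among DT-061 libraries in library 3 (4.02 FPKM), where the macrophage markers were lowest. Trim59 was lowest among vehicle libraries in library 2, and the macrophage markers in library 4. The mean log2(FPKM + 1) of the 7 TRIM genes was lowest in DT-061 library 3, at 1.52, with 1.86 to 1.95 in the remaining DT-061 libraries, against 2.16 in vehicle library 4 and 2.50 to 3.17 in the other vehicle libraries. The 5 macrophage markers in the table, of 23 listed, ranged from 1.71 to 3.44 with DT-061 and from 3.53 to 5.59 with vehicle. The 10 dendritic cell and class II markers, of 14 listed, ranged from 2.87 to 3.60 with DT-061 and from 3.79 to 5.38 with vehicle. The 4 general leukocyte markers, of 11, ranged from 1.68 to 3.70 with DT-061 and from 3.65 to 5.87 with vehicle. The 17 T and NK cell markers, of 24, ranged from 0.24 to 0.66 with DT-061 and from 0.58 to 2.47 with vehicle. The 5 B and plasma cell markers, of 15, ranged from 2.15 to 3.74 with DT-061 and from 4.6 to 8.77 with vehicle. As deposited, all markers of these 5 lists fell except 1 T and NK cell marker, Cd3e (limma adjusted p = 0.053), against 65.0% of the table. All 5 macrophage markers also fell with each rescaling. Of the 17 T and NK cell markers, 13 fell with the median rescaling. With quantile normalization 0 of them fell and 4 were higher. Of the 10 dendritic cell and class II markers, 7 fell with the median rescaling, and with quantile normalization 5 fell and 2 were higher. Falls with the median rescaling and with quantile normalization were 2 and 3 for general leukocyte markers. They were 3 and 3 for B and plasma cell markers, 1 of which turned to higher with the median rescaling.

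Neutrophil markers, with 4 of 14 in the table, ranged from 0.41 to 0.91 with DT-061 and from 1.18 to 3.70 with vehicle, and S100a9 was listed at 0 in DT-061 library 3 and vehicle library 4. All 4 neutrophil markers fell as deposited and with the median rescaling, and 1 fell with quantile normalization. Fibroblast markers, with 4 of 14 in the table, ranged from 5.36 to 6.20 with DT-061 and from 6.58 to 7.15 with vehicle. As deposited 3 of them fell and 1 rose. With the median rescaling 2 were lower and 2 higher, with 1 fall, and with quantile normalization 3 fell and 1 was higher. Smooth muscle markers went the other way, with 9 of 14 in the table ranging from 9.67 to 10.27 with DT-061 and from 8.87 to 9.40 with vehicle. All 9 rose as deposited, and 1 turned to lower with quantile normalization. None of the 11 endothelial markers was in the table. Vehicle library 1, the highest library in all 7 TRIM genes, also had the highest macrophage, T and NK cell and interferon response means. The part of these cell types in the TRIM differences was not tested.

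**Figure D4:**
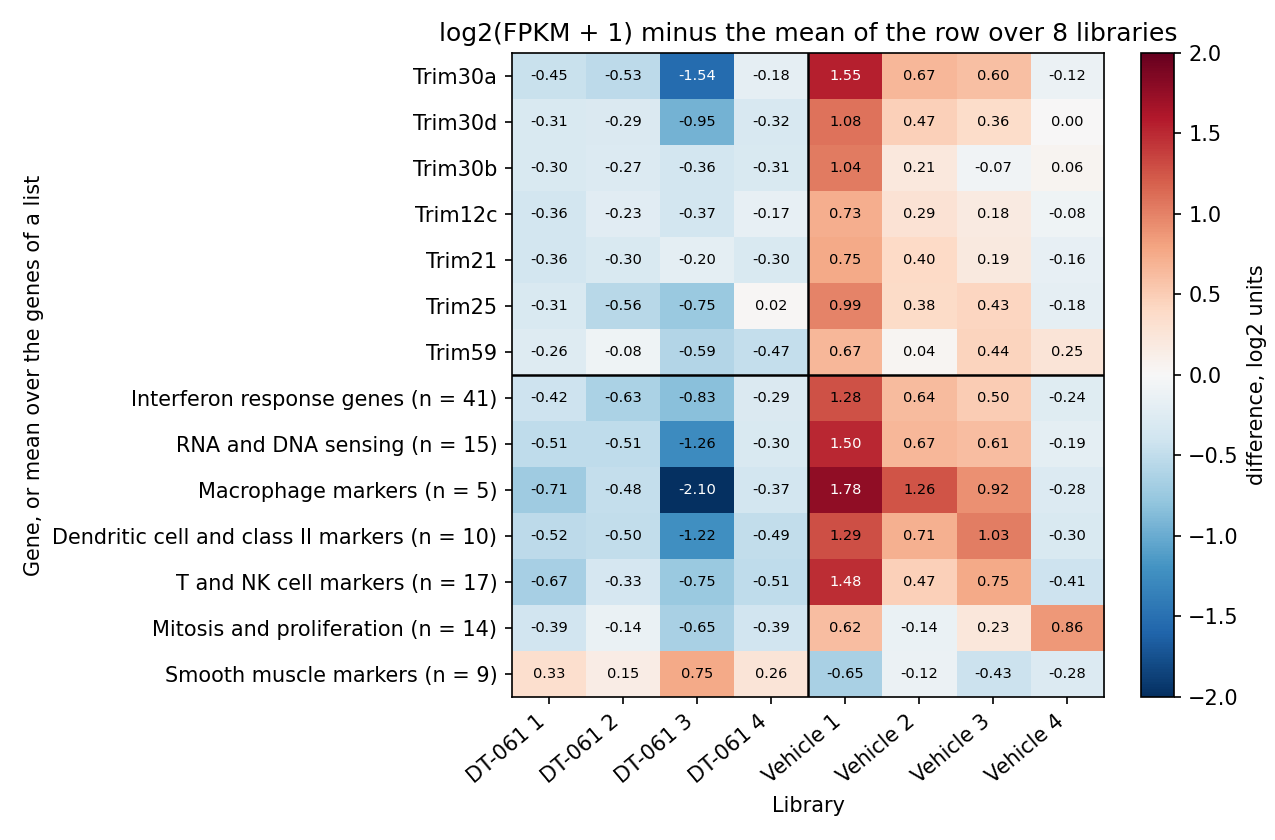
log2(FPKM + 1) of each TRIM gene, and the mean over the genes of 7 lists, in each of the 8 libraries after subtracting the row's own mean; red is above it and blue below. Vehicle library 1 is the highest library for all 7 TRIM genes, and DT-061 library 3 is -1.54 for Trim30a and -2.10 for the macrophage markers but -0.20 for Trim21.

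The TRIM genes differed in what they most resembled. Likeness was measured as the root mean square difference between centred log2(FPKM + 1) profiles over the 8 libraries. It was taken among 1008 or 1009 protein coding genes of the table with a mean of at least 1 FPKM. The profiles were not scaled to a common spread, so the size of a change weighs in the distance as well as its pattern. Trim30a lay nearest to Mndal, of the p200 family, at 0.066 log2 units, and then to Dennd1c at 0.121. Trim30d lay nearest to Plcl2 at 0.087 and to the immunity-related GTPase gene Irgm1 at 0.09. Trim21 lay nearest to the interferon transcription factor gene Irf1 at 0.067 and to Gmip at 0.069. Trim12c lay nearest to Ppm1h, a protein phosphatase gene, at 0.031 and also to Gmip at 0.069.

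Trim25 was nearest to Dtx3l, a ubiquitin ligase gene of the interferon response, at 0.118 and to the immunoproteasome subunit gene Psmb10 at 0.124. Trim30b was nearest to the costimulatory receptor gene Cd40 at 0.114 and to the endoplasmic reticulum chaperone gene Hspa5 at 0.122. Adding 1 FPKM flattens the low values of Trim30b, whose mean was 6.19-fold lower, against 2.44-fold for Cd40 and 1.79-fold for Hspa5. Trim59 was nearest to the adenosine deaminase gene Ada at 0.075 and to the carboxypeptidase gene Prcp at 0.118. Among the TRIM genes themselves, Trim12c and Trim21 were the closest pair at 0.094, and Trim21 and Trim30a the most distant at 0.585. The close paralogues Trim30a and Trim30d stood 0.31 apart, with log2 changes of -1.35 and -0.94. Yet both were lowest in DT-061 library 3 and highest in vehicle library 1. All profiles share the 8 libraries and the difference on which the table was selected, so these distances are a description.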

How the data were processed

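The deposited values are FPKM made by the authors, 1 column per library, and the submitters' processing notes name the build mm10, featureCounts 1.5.0-p3, StringTie 1.3.3b and the aligner HISAT2 2.0.5 without giving each tool's role. Strand setting, the fragment total behind FPKM and the tool and threshold behind the selection of the 1329 genes were not given in the sources used here. Symbols (1328 of 1329 matched) and GENCODE M21 coordinates on GRCm38, the build mm10 names, were joined to the Ensembl identifiers.

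limma 3.58.1 (trend and robust options, R 4.3.3) was fitted to log2(FPKM + 1) of all 1329 genes with treatment as the only term and Benjamini-Hochberg adjustment, at a threshold of 0.05. Rose and fell are used past that threshold. The procedure was tested on simulated data in which most genes did not change. The table analysed here was selected on the contrast, so that test gives no error rate for it. Exact permutation tests used all 70 regroupings. Fragments per library came from the step at which FPKM times exonic length is whole to within 0.03 for multiples up to 60. At that step 20.0% to 34.3% of low values were whole, against 5.73% to 5.88% at the median step tried. Fragment numbers per gene use GENCODE lengths and are estimates, since the lengths the authors used may differ.

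Named were the TRIM genes, the 2 largest changes with a mean of at least 1 FPKM in each list, the 2 nearest profiles of each TRIM gene and Mefv. For marker lists, levels and counts of calls are given. Members and lists were chosen with earlier results of these data known. Promoters came from RefSeq (all 7 genes matched), and identity was computed on GENCODE coding sequences in place of the proteins planned. Myh11, S100a9 as a zero value and Cd3e were named after their values were seen. The pairing by replicate number was checked through correlations of deviations from the group means, which were not positive in every pair. Such a check cannot decide whether same-numbered libraries share a litter or day. Other settings tried were a filter at a mean of 1 FPKM, a pseudocount of 0.1, no trend or robust option, a replicate block, median rescaling, quantile normalization, leaving out each library and leaving out DT-061 library 3 with vehicle library 4. Folds and ratios without a library were added after seeing the data.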

Additional observations from a re-analysis of the deposited data

Results flagged for a closer look

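Of the 14 groups of 4 libraries of the 7 TRIM genes, 1 held a library far from the other 3, where chance gives about 1 in 20. It was Trim30d, with 1.81 FPKM in DT-061 library 3. Over all 51 genes checked, TRIM genes included, 7 of 102 groups held such a library, which is near that chance share. Among the other genes picked by the naming rule, the same library was the low one for Ctss at 11.0 FPKM and Dennd1c at 0.957 FPKM. It was also the low one for H2-Ab1 at 37.3 FPKM and Plcl2 at 0.851 FPKM, and the high one for Myl9 at 4900 FPKM. Dennd1c and Plcl2 were picked for their likeness to Trim30a and Trim30d, so they add nothing independent. Hspa5 stood out in vehicle library 1, at 454 FPKM.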

How the results depend on the processing

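The table was selected on this contrast, holds few fragments for Trim30b and depends on the scaling. As deposited, 404 genes rose and 864 fell. Falls numbered 301 with the median rescaling and 209 with quantile normalization, and TRIM genes that fell numbered 1 and 1, against 7 as deposited. With the median rescaling and with quantile normalization, Trim12c changed by 0.16 and 0.10 and Trim21 by 0.13 and 0.09, and with quantile normalization Trim30b by 0.02 and Trim59 by 0.22; the cause was not tested. In the lists, falls with the median rescaling and with quantile normalization were 7 and 7 for RNA and DNA sensing, 0 and 0 for ISG15 conjugation, 2 and 3 for interferon signalling, 11 and 14 for interferon response, 2 and 1 for Toll-like receptors, 0 and 0 for proliferation, and 1 with the median rescaling for Fc receptors. Leaving out 1 library gave 254 to 351 rises and 652 to 881 falls in the table and 4 to 7 among the TRIM genes, with 4 without DT-061 library 1. It gave 1 to 3 falls for ISG15 conjugation, 1 to 2 for Fc receptors, 4 to 9 for Toll-like receptors (4 without DT-061 library 3 and 5 without vehicle library 2) and 6 to 14 for proliferation (6 without DT-061 library 3 and 8 without library 1 or 4). The 254 rises were without vehicle library 3. Fc receptors had 1 fall without vehicle library 2, and ISG15 conjugation had 1 when any of libraries 1 to 3 of either group was left out and 2 without DT-061 library 4. Without DT-061 library 3 and vehicle library 4, 7 proliferation genes fell. Deviations of same-numbered libraries had correlations of 0.184, -0.107, -0.0519 and -0.466, which cannot decide whether the number marks a shared litter or day. With a replicate block 204 genes rose and 3 TRIM, 1 ISG15 conjugation and 6 proliferation genes fell. The TRIM genes whose call was lost were Trim12c, Trim21, Trim25 and Trim59 (limma adjusted p = 0.0562, 0.0547, 0.0541 and 0.0505). A minimum mean of 1 FPKM removed Trim30b. The 9-letter core GAAANNGAA was in 8.56% of all windows and 12.4% of those of table genes. Exact permutation results on linear FPKM had the same p-values.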
